A study of Vachellia cornigera with 24 samples.

Results

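Extrafloral nectaries of the swollen-thorn acacia Acacia cornigera were compared at 3 am and at noon by RNA sequencing. The 5 libraries compared are those that the labels place at 3 am (2 libraries) and at noon (3 libraries), out of 24 libraries in the series. The plants grew in the field and are hosts of mutualistic colonies of the ant Pseudomyrmex ferrugineus, and neither group carries a treatment in its label. The 3 am samples are titled day 2 and the noon samples name no day, so clock time and sampling day cannot be told apart. Each library was made from nectaries pooled over individual plants. The other 19 libraries were taken at 8 am, 9 am, 2 pm and 3 pm, after changes to the ant colony, or with gut contents applied. They enter here only to estimate the spread and to place the 5 libraries. Pooled whole nectaries hold secretory, vascular, photosynthetic and epidermal cells, so fewer cells of a type and less RNA per cell cannot be told apart.

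An extrafloral nectary is a gland outside the flower that secretes sugar, here for the ants that guard the plant. In the model worked out mainly in Arabidopsis flowers, sugar is stored as starch or imported, turned into sucrose by sucrose-phosphate synthase, exported through the SWEET9 channel and cleaved outside the cell by cell wall invertase. Plants also time many genes by a circadian clock, in which LHY acts around dawn and TOC1 and the evening complex act later, and light resets that clock through phytochromes and cryptochromes. Genes are given below by the Arabidopsis locus that the deposited table assigns to each row, with the locus at first mention.

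The values are normalised counts. The 3 am libraries summed to 23648415 and 23715719 and the noon libraries to between 21502670 and 23560801, and the sequencing depth behind them is unknown. Pearson correlations of log2(normalised count + 1) were 0.968 between the 3 am libraries, 0.989 to 0.994 among the noon libraries and 0.886 to 0.901 between a 3 am and a noon library. The 3 am sample 1 correlated best with 9 am sample 3 (0.971) and not with the other 3 am library. Noon samples 1 and 3 lay much closer to each other than to noon sample 2. Counts and calls that change when they are averaged and counted as 1 library are given both ways, except for the gene families at the end. Of the nectary genes, SWEET9 (AT2G39060) was present in all 5 libraries, and 8 of 14 genes listed for nectary development were measured. The carpel and nectary regulator CRC was among the 14 listed, and its values are not given here.

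Between 3 am and noon, 2493 of 12264 genes tested differed (20.3%, limma moderated test, Benjamini-Hochberg adjusted p under 0.05), 1213 of them higher at 3 am (9.89%) and 1280 lower (10.4%). The 3 am and noon libraries did not overlap in 69% of genes, 30.1% with both 3 am libraries above all noon libraries and 38.9% with both below. The median log2 change over all genes tested was -0.09. The shares called, 9.89% higher and 10.4% lower, are those to set beside the list counts below. The plot of group means marks some of the genes described below. With noon samples 1 and 3 counted as 1 library, 1550 genes were called, 856 higher and 694 lower. Without 3 am sample 1 there were 676 called genes, 503 higher and 173 lower, of which 650 were among the 2493. Without 3 am sample 2 there were 1115, of which 1069 were among the 2493. Leaving out noon sample 1, 2 or 3 gave 1607, 1422 and 1545 genes.

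**Figure D1:**
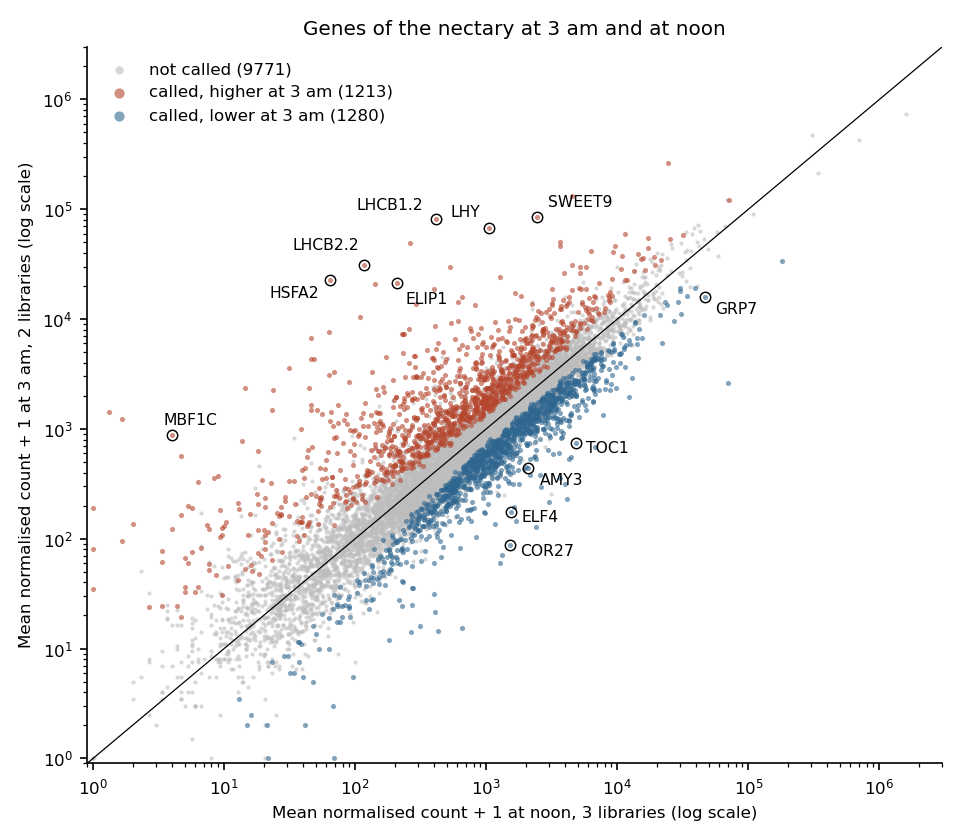
Mean normalised count plus 1 at noon (horizontal, 3 libraries) against 3 am (vertical, 2 libraries), both on log scales, one point per gene; the line marks equal values. LHCB2.2, LHY, SWEET9 and HSFA2 lie far above the line and TOC1, ELF4 and COR27 below it, among 1213 genes called higher and 1280 called lower at 3 am.

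Several genes of the morning side of the clock rose at 3 am. LHY (AT1G01060), a MYB-like repressor at the core of the clock, had 83028 and 52680 normalised counts at 3 am and 987, 1034 and 1112 at noon. Both 3 am libraries lay far above all noon libraries, with a log2 change of 5.99 ± 0.94 (SE; limma adjusted p = 0.000621). LNK1 (AT5G64170), a coactivator that works with LHY relatives of the REVEILLE family, stood at 15108 and 12173 against 310, 290 and 275 (log2 change 5.54 ± 0.94; limma adjusted p = 0.00106). Its partner LNK2 (AT3G54500) had 8020 and 6613 at 3 am and 228, 258 and 224 at noon, a log2 change of 4.94 ± 1.13 with limma adjusted p = 0.00699. In total 4 of 9 morning genes tested rose and none fell, against 9.89% and 10.4% of all genes tested. The list's median log2 change was 1.43. The fourth, RVE7 (AT1G18330), had 2985 and 1756 against 872, 906 and 781, and did not pass with the noon pair as 1 library (limma adjusted p = 0.0714) or without any single library. LNK2 did not pass without 3 am sample 1 (limma adjusted p = 0.0638), where the list kept 2 calls. Other members moved less or were not called. PRR7 (AT5G02810), a pseudo-response regulator that represses LHY, had 3596 and 3415 against 1033, 1127 and 1033 (limma adjusted p = 0.211), and RVE1 (AT5G17300) had 7490 and 5078 against 8664, 10074 and 8979 (limma adjusted p = 0.661).

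Among genes of the later day the direction was split, with 3 of 12 higher and 4 lower, against 9.89% and 10.4% of all genes tested. The median log2 change was -0.51. TOC1 (AT5G61380), which represses LHY in the evening, had 667 and 830 normalised counts at 3 am and 4586, 5051 and 4782 at noon. The noon libraries were all higher, and the log2 change was -2.69 ± 0.48 (SE; limma adjusted p = 0.0015). ELF3 (AT2G25930) and ELF4 (AT2G40080), subunits of the evening complex, lay in the same direction. ELF3 had 1253 and 1409 against 3979, 4913 and 4077, a log2 change of -1.69 ± 0.32 (limma adjusted p = 0.00232). ELF4 had 135 and 213 against 1458, 1769 and 1397, a log2 change of -3.17 ± 0.67 (limma adjusted p = 0.0046). The third subunit, LUX (AT3G46640), was not called, with 139 and 191 against 256, 250 and 229. COR27 (AT5G42900), a cold- and light-responsive clock regulator, had 56 and 116 at 3 am and 1304, 1762 and 1489 at noon. It fell by 4.21 on the log2 scale (SE 0.76; limma adjusted p = 0.00158), with the noon libraries all above 3 am.

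PRR5 (AT5G24470), a pseudo-response regulator that acts after midday in Arabidopsis, moved against that group. It had 8311 and 6371 normalised counts at 3 am and 787, 1010 and 810 at noon, a log2 change of 3.07 ± 0.68 (SE; limma adjusted p = 0.00553). PRR3 (AT5G60100) rose from 22, 31 and 9 at noon to 132 and 95. ZTL (AT5G57360), the blue-light receptor that marks TOC1 for degradation, differed by a log2 change of only 0.33 and was not called with the noon pair as 1 library (limma adjusted p = 0.121), which left 2 higher and 4 lower. GI (AT1G22770), which stabilises ZTL, was not called, with 6993 and 8478 against 9675, 12578 and 9432 (limma adjusted p = 0.708), nor was FKF1 (AT1G68050; limma adjusted p = 0.142). ELF4, PRR5 and PRR3 did not pass without 3 am sample 1 (limma adjusted p from 0.0624 to 0.0805), which left none higher and 3 lower.

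**Figure D2:**
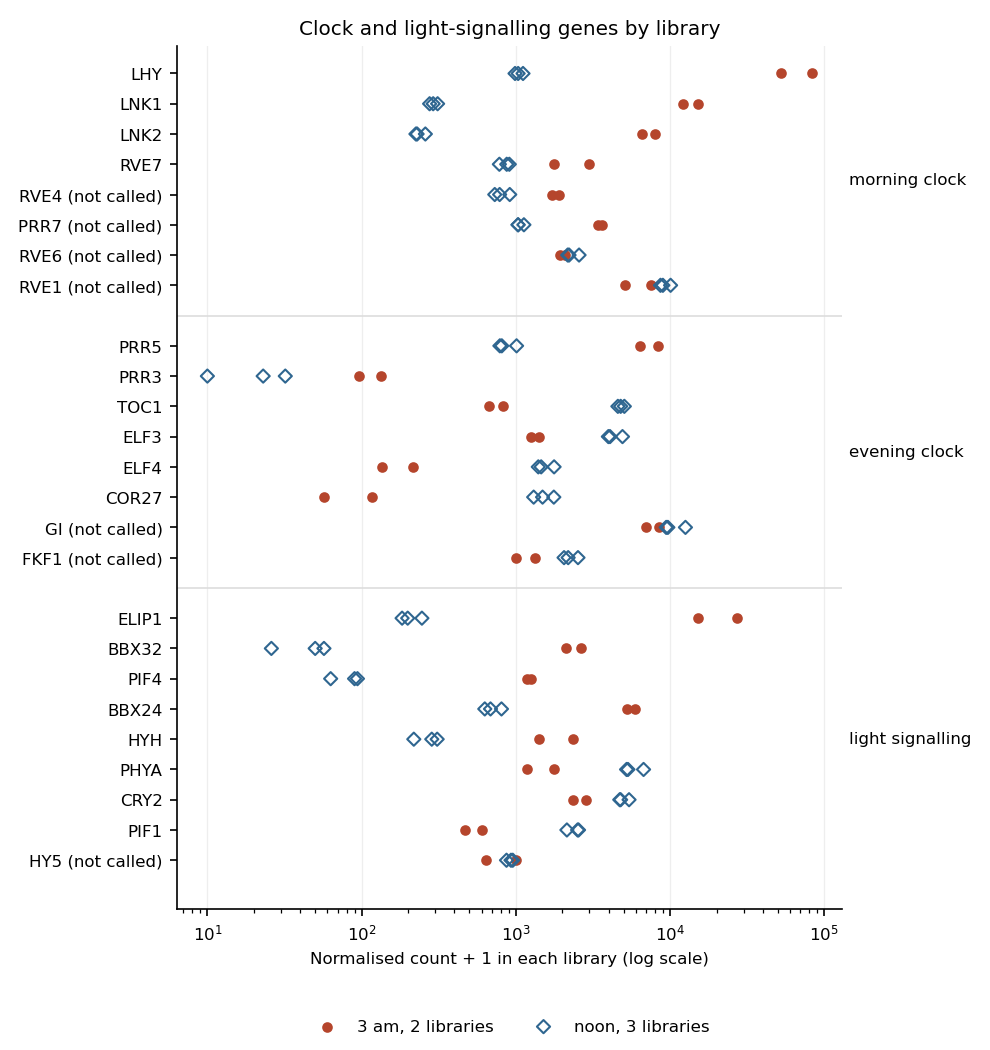
Normalised count plus 1 (log scale) in each 3 am library (filled circles) and each noon library (open diamonds) for clock and light-signalling genes. The groups stand apart for LHY, LNK1 and ELIP1, which are higher at 3 am, and for TOC1, ELF4 and COR27, which are higher at noon, while HY5 overlaps.

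Light-signalling genes changed in both directions, with a median log2 change of 0.25. Of 23 genes 7 rose and 6 fell, against 9.89% and 10.4% of all genes tested. ELIP1 (AT3G22840), an early light-induced protein that binds chlorophyll under light stress, had 27047 and 15223 normalised counts at 3 am and 198, 245 and 182 at noon. The log2 change was 6.61 ± 0.59 (SE; limma adjusted p = 1.2e-05), and the 3 control libraries of 8 am held 18264, 19624 and 24863. BBX32 (AT3G21150), a B-box repressor of light responses, had 2646 and 2111 against 25, 49 and 56 (log2 change 5.81 ± 0.62; limma adjusted p = 9.77e-05). BBX24 (AT1G06040), another B-box protein, had 5231 and 5929 against 684, 806 and 628 (log2 change 2.99 ± 0.36; limma adjusted p = 0.000114). Both were higher in every 3 am library. PIF4 (AT2G43010), a phytochrome-interacting factor that promotes growth, had 1181 and 1250 at 3 am and 93, 62 and 89 at noon (log2 change 3.91 ± 0.51; limma adjusted p = 0.000155).

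The photoreceptor genes that fell were PHYA and CRY2. PHYA (AT1G09570), the far-red receptor that light degrades, had 1188 and 1766 normalised counts at 3 am and 5332, 6730 and 5222 at noon, a log2 change of -1.98 ± 0.38 (SE; limma adjusted p = 0.00256). CRY2 (AT1G04400), a blue-light receptor, had 2359 and 2843 against 4717, 5419 and 4779 (log2 change -0.94 ± 0.19; limma adjusted p = 0.00352). PHYB (AT2G18790) and CRY1 (AT4G08920) overlapped between the groups, with log2 changes of -0.01 and -0.09. HY5 (AT5G11260), the central activator of light responses, also overlapped, with 998 and 637 against 869, 929 and 954, while its homologue HYH (AT3G17609) had 2330 and 1420 against 217, 308 and 284 (limma adjusted p = 0.012). PIF1 (AT2G20180) fell by 2.17 on the log2 scale (limma adjusted p = 0.0171). PHYA, CRY2, HYH and PIF1 did not pass without 3 am sample 1 (limma adjusted p from 0.0509 to 0.135), which left 4 higher and 1 lower. Without 3 am sample 2 there were 6 higher and 2 lower, and with the noon pair as 1 library 6 and 4.

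Genes of the light-harvesting antenna, the proteins that collect light for the photosystems, were among the largest rises. LHCB2.2 (AT2G05070), an antenna protein of photosystem II, had 25275 and 36935 normalised counts at 3 am and 122, 119 and 104 at noon. LHCB1.2 (AT1G29910) had 66782 and 97473 against 423, 428 and 386. The log2 changes were 8.04 ± 1.33 (SE; limma adjusted p = 0.000897) and 7.61 ± 1.38 (limma adjusted p = 0.0017). LHCB5 (AT4G10340), a minor antenna protein, had 15216 and 22324 against 420, 358 and 418, and LHCA4 (AT3G47470), in the antenna of photosystem I, had 8828 and 11976 against 122, 94 and 106. Their log2 changes were 5.53 ± 0.73 (limma adjusted p = 0.00019) and 6.58 ± 0.98 (limma adjusted p = 0.000459). In each of these genes 3 am sample 2 was the higher of the 3 am libraries. Since near-identical antenna copies can share reads, the split between LHCB members is uncertain.

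Over photosystem and electron transport genes, the antenna included, 27 of 37 rose and none fell, against 9.89% and 10.4% of all genes tested. The median log2 change was 1.83. PSBS (AT1G44575), which dissipates excess light energy, had 8874 and 8509 normalised counts at 3 am and 2229, 2510 and 2134 at noon (log2 change 1.93 ± 0.24; limma adjusted p = 0.000132). PSAN (AT5G64040), a photosystem I subunit, had 3320 and 4473 against 872, 834 and 817 (limma adjusted p = 0.000791). PETC (AT4G03280), the Rieske protein between the photosystems, overlapped, with 5207 and 5572 against 5203, 5557 and 5231. The list's summed normalised counts were 313364 and 407202 at 3 am and between 81161 and 88186 at noon, with 93575 to 562525 in the other libraries. With the noon pair as 1 library 23 members passed, without 3 am sample 1 17, and without 3 am sample 2 13.

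Enzymes that make chlorophyll rose in 4 of 12 cases and none fell, with a median log2 change of 1.35, and there were 4 calls without any single library too. The shares over all genes tested were 9.89% higher and 10.4% lower. CHLH (AT5G13630), a subunit of magnesium chelatase, had 4464 and 7289 normalised counts against 887, 1014 and 899 (log2 change 2.61 ± 0.30; limma adjusted p = 9.77e-05). CAO (AT1G44446), which makes chlorophyll b, had 1997 and 2371 against 180, 162 and 151 (log2 change 3.72 ± 0.50; limma adjusted p = 0.000204). CRD1 (AT3G56940), a cyclase of the same pathway, had 7631 and 9053 against 714, 819 and 721 (log2 change 3.47 ± 0.52; limma adjusted p = 0.000459). All 3 were higher in both 3 am libraries than in any noon library. HEMA1 (AT1G58290), which commits glutamate to the pathway, rose by a log2 change of 1.18 ± 0.21 (limma adjusted p = 0.00154).

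Among carbon fixation genes, the small subunit of Rubisco, RBCS1A (AT1G67090), overlapped, with 65434 and 75200 normalised counts at 3 am and 66596, 66849 and 64516 at noon. In the Calvin cycle 3 of 12 genes rose and none fell, against 9.89% and 10.4% of all genes tested. The rises were in GAPA1, PGK1 and SBPase, and the median log2 change was 0.53. GAPA1 (AT3G26650), the plastid glyceraldehyde-phosphate dehydrogenase, had 17287 and 20759 against 5176, 5362 and 4739 (log2 change 1.90 ± 0.38; limma adjusted p = 0.00315). Of 36 genes of the plastid genome 2 were called, both higher, against 9.89% of all genes tested, and none without 3 am sample 1. Without the 9 am and 3 pm groups in the fit 14 rose and none fell, where 2119 and 2783 of all 12264 genes did. In 34 of the 36 plastid genes both 3 am libraries lay above all noon libraries, against 30.1% of all genes tested. The median log2 change of the plastid genes was 2.23. Their summed normalised counts were 67626 and 39756 at 3 am and 9856, 9235 and 13356 at noon, so that 3 am sample 1 was the higher here and sample 2 in the photosystem sum. The 27 mitochondrial genes had a median log2 change of 1.21 and summed to 40783 and 22458 against 10247 to 13787, with 1 called in each direction, 1 higher and none lower with the noon pair as 1 library, and none without 3 am sample 1. The part of organelle RNA in the results on nuclear genes was not tested.

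Heat shock genes were the list with the highest median, a log2 change of 2.99. In this list 15 of 20 rose and none fell, against 9.89% and 10.4% of all genes tested. HSFA2 (AT2G26150), a transcription factor that sustains the heat response, had 33378 and 12265 normalised counts at 3 am and 71, 57 and 60 at noon. HSP101 (AT1G74310), a disaggregase needed for heat tolerance, had 39808 and 19716 against 499, 573 and 521. The log2 changes were 8.32 ± 1.24 (SE; limma adjusted p = 0.000459) and 5.72 ± 0.94 (limma adjusted p = 0.000864). The small heat shock protein HSP23.5 (AT5G51440), of the HSP20 chaperone class, had 28509 and 12841 against 128, 152 and 139, a log2 change of 7.09 ± 0.90 (limma adjusted p = 0.00014). The coactivator MBF1C (AT3G24500) had 1346 and 397 at 3 am and was listed at 0, 0 and 9 at noon, so its fitted change rests on the added 1.

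The size of the heat shock signal differed between the 3 am libraries, with sample 1 above sample 2 in HSFA2, HSP101, HSP23.5 and MBF1C. The list summed to 230761 and 119115 normalised counts at 3 am and to between 16450 and 18169 at noon, and the 8 am control libraries held 2301, 1557 and 8959 of HSFA2. Members that did not pass included the drought and heat regulator DREB2A (AT5G05410), with 407 and 291 against 374, 357 and 385, and HSP70 (AT3G12580), with 2333 and 1615 against 937, 1204 and 1031. The list kept 10 calls without 3 am sample 1 and 15 without any other single library. Folding genes of the endoplasmic reticulum followed with 4 of 12 higher and 1 lower, against 9.89% and 10.4% of all genes tested. Their median log2 change was 0.96. SDF2 (AT2G25110), part of a folding complex there, had 3295 and 3511 against 1358, 1355 and 1266 (log2 change 1.36 ± 0.27; limma adjusted p = 0.00321). With the noon pair as 1 library 3 rose and none fell, and without either 3 am library 1 rose.

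**Figure D3:**
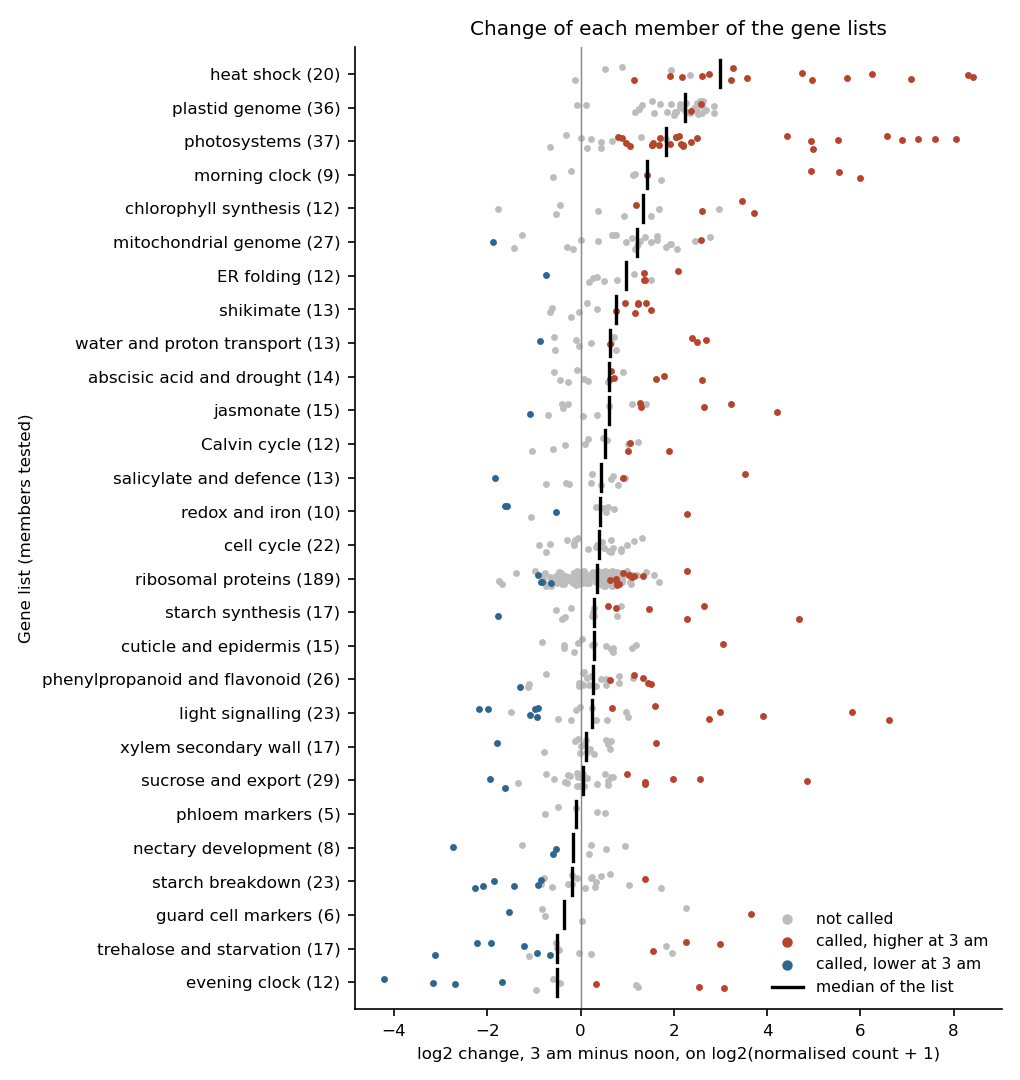
log2 change from noon to 3 am of each tested member of each gene list, ordered by the list's median (black bar); red points were called higher at 3 am, blue points lower and grey points not called. Heat shock, plastid genome and photosystem genes have the highest medians (2.99, 2.23 and 1.83), and evening clock genes the lowest (-0.51).

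SWEET9, the sucrose channel of nectaries, was the sugar gene with the largest change. It had 129912 and 39033 normalised counts at 3 am and 2501, 2338 and 2510 at noon, so that both 3 am libraries were above noon and differed among themselves. The log2 change was 4.86 ± 0.80 (SE; limma adjusted p = 0.000864). At 8 am the control libraries held 206764, 125151 and 191852. CWINV4 (AT2G36190), the cell wall invertase needed for nectar in Arabidopsis, had 40144 and 49443 at 3 am and 17573, 15738 and 17786 at noon. That log2 change was 1.39 ± 0.45 (limma adjusted p = 0.0385), and the call was lost with the noon pair as 1 library (limma adjusted p = 0.0778) or without any 1 of the 5 libraries. CWINV2 (AT3G52600) had 6823 and 8300 against 2959, 2775 and 2946 (log2 change 1.38 ± 0.45; limma adjusted p = 0.0375) and lost its call in the same cases.

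Genes of sucrose synthesis and sugar uptake went in both directions. SPS1F (AT5G20280), a sucrose-phosphate synthase, had 7188 and 8286 normalised counts at 3 am and 3841, 4020 and 3781 at noon (log2 change 0.99 ± 0.23; limma adjusted p = 0.00758). SUS1 (AT5G20830), which cleaves sucrose, overlapped, with 10111 and 23394 against 16419, 15980 and 15692. STP1 (AT1G11260), a hexose uptake carrier of the plasma membrane, had 493 and 781 against 2391, 2398 and 2405, a log2 change of -1.95 ± 0.46 (limma adjusted p = 0.00829). It was lower in both 3 am libraries, as was SWEET15 (AT5G13170), with 2877 and 2478 against 7711, 9005 and 7797 (limma adjusted p = 0.0495, and 0.093 with the noon pair as 1 library). In all 6 of 29 sugar genes rose and 2 fell, against 9.89% and 10.4% of all genes tested. The median log2 change was 0.05, and with the noon pair as 1 library 3 rose and 1 fell. SPS1F did not pass without 3 am sample 2 (limma adjusted p = 0.0685), nor STP1 without 3 am sample 1 (0.113). The list then held 3 higher and 1 lower, and 2 higher and none lower.

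**Figure D4:**
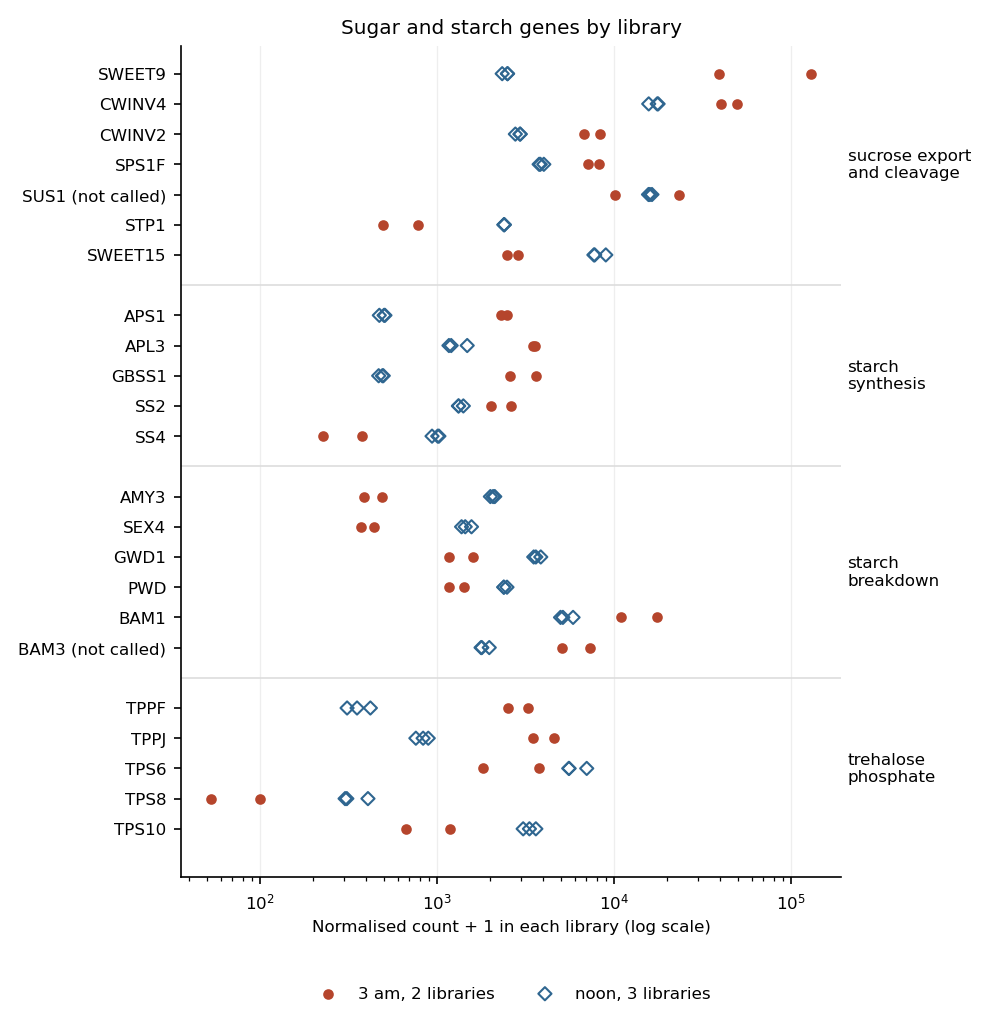
Normalised count plus 1 (log scale) in each 3 am library (filled circles) and each noon library (open diamonds) for genes of sucrose, starch and trehalose phosphate. SWEET9 and APS1 are higher in both 3 am libraries, AMY3, SEX4 and GWD1 are lower, and SUS1 overlaps.

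Starch synthesis genes rose more often than they fell, with a median log2 change of 0.29. Of 17 genes 6 were higher and 1 lower, against 9.89% and 10.4% of all genes tested. APS1 (AT5G48300), the small subunit of ADP-glucose pyrophosphorylase, had 2296 and 2500 normalised counts at 3 am and 502, 472 and 508 at noon. Its log2 change was 2.28 ± 0.30 (SE; limma adjusted p = 0.000173). APL3 (AT4G39210), a large subunit of the same enzyme, had 3498 and 3567 against 1169, 1483 and 1204 (log2 change 1.47 ± 0.24; limma adjusted p = 0.000736). Both subunits were higher in every 3 am library. GBSS1 (AT1G32900), which makes amylose, had 2595 and 3616 against 468, 497 and 491 (limma adjusted p = 0.0141), while SS4 (AT4G18240), linked to granule initiation, had 226 and 376 against 1010, 1026 and 938 (limma adjusted p = 0.0431). With the noon pair as 1 library the list held 5 higher and none lower, with SS4 at a limma adjusted p of 0.0885. GBSS1 did not pass without 3 am sample 1 (0.0696) or sample 2 (0.0995), which left 4 and 2 members higher and none lower.

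Of starch breakdown genes 6 of 23 were lower and 1 higher, against 10.4% and 9.89% of all genes tested. The median log2 change was -0.17. AMY3 (AT1G69830), a plastid alpha-amylase, had 385 and 487 normalised counts at 3 am and 2077, 2005 and 2123 at noon (log2 change -2.25 ± 0.48; limma adjusted p = 0.00469). GWD1 (AT1G10760), the dikinase that phosphorylates starch to open the granule, had 1173 and 1604 against 3624, 3525 and 3863 (log2 change -1.42 ± 0.35; limma adjusted p = 0.00986). SEX4 (AT3G52180), the phosphatase that removes that phosphate again, had 370 and 439 against 1378, 1568 and 1445 (log2 change -1.86 ± 0.48; limma adjusted p = 0.0133). Both dikinases, the phosphatase and the amylase were thus lower in both 3 am libraries, PWD (AT5G26570) by 0.91 on the log2 scale (limma adjusted p = 0.0157). The beta-amylases did not follow. BAM1 (AT3G23920) had 10958 and 17633 against 5152, 5881 and 4996 (limma adjusted p = 0.0412, and 0.0946 with the noon pair as 1 library), and BAM3 (AT4G17090), the main leaf enzyme at night in Arabidopsis, had 5107 and 7320 against 1776, 1976 and 1794 without passing (limma adjusted p = 0.0608). No member passed without 3 am sample 1, where AMY3, GWD1, SEX4 and PWD had limma adjusted p from 0.0593 to 0.154. There were 4 lower members without 3 am sample 2, and 5 lower and none higher with the noon pair as 1 library.

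Trehalose 6-phosphate, a sugar signal, is made by synthases and removed by phosphatases. Some phosphatase genes rose, the gene of the synthase with known activity overlapped, and genes related to that synthase fell. The phosphatase TPPF (AT4G12430) had 2515 and 3284 normalised counts at 3 am and 420, 310 and 353 at noon (log2 change 3.00 ± 0.36; limma adjusted p = 0.000114). TPPJ (AT5G65140) had 3470 and 4614 against 760, 835 and 893 (log2 change 2.27 ± 0.35; limma adjusted p = 0.000561). Both were higher in each 3 am library. TPS1 (AT1G78580), the synthase with known catalytic activity in Arabidopsis, overlapped, with 2253 and 3647 against 2968, 2888 and 2991. The related TPS6, TPS8, TPS10 and TPS11 fell, TPS6 (AT1G68020) with 1823 and 3756 against 5571, 7024 and 5578 (log2 change -1.20 ± 0.32; limma adjusted p = 0.0147). KIN10 (AT3G01090), a kinase active under sugar starvation, fell by 0.66 on the log2 scale (limma adjusted p = 0.0133) and its target bZIP63 (AT5G28770) by 0.93 (limma adjusted p = 0.00999). DIN10 (AT5G20250), described as a raffinose synthase family protein and counted in the same list, rose instead. It had 1125 and 1769 against 461, 499 and 488, a log2 change of 1.55 ± 0.41 (limma adjusted p = 0.0136). Over the list 3 of 17 rose and 6 fell, against 9.89% and 10.4% of all genes tested. The median log2 change was -0.51, and with the noon pair as 1 library 3 rose and 4 fell. Without 3 am sample 1 no member fell and TPS6 had a limma adjusted p of 0.268, and without noon sample 2 only 1 fell.

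Jasmonate genes rested mainly on 3 am sample 2. JAZ1 (AT1G19180), a repressor of jasmonate responses that the hormone itself induces, had 17689 and 44580 normalised counts at 3 am and 4479, 4297 and 4757 at noon (log2 change 2.64 ± 0.55; limma adjusted p = 0.00377). JAZ8 (AT1G30135) had 31 and 706 against 11, 3 and 10, and JAZ2 (AT1G74950) had 158 and 514 against 38, 24 and 28. Sample 2 was above sample 1 in each of them, also in LOX3 (AT1G17420), a lipoxygenase of jasmonate synthesis, with 2234 and 8952 against 1825, 1931 and 1792. COI1 (AT2G39940), the receptor subunit, had 4522 and 5162 against 9538, 11794 and 9483, a log2 change of -1.08 ± 0.28 (limma adjusted p = 0.0134). Of 15 members 5 rose and 1 fell, against 9.89% and 10.4% of all genes tested. The median log2 change was 0.61, and with the noon pair as 1 library 4 rose and 1 fell. Without 3 am sample 2 none rose, with limma adjusted p of 0.0677 for JAZ1 and 0.184 for JAZ8, and without 3 am sample 1 6 rose and none fell.

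Among salicylate and defence genes 2 of 13 were higher and 1 lower, against 9.89% and 10.4% of all genes tested, with a median log2 change of 0.43. PR1 (AT2G14610), a pathogenesis-related protein that salicylate induces, had 7807 and 5374 normalised counts at 3 am and 683, 386 and 671 at noon (log2 change 3.53 ± 0.86; limma adjusted p = 0.00965). BGL2 (AT3G57260), a glucanase often induced beside PR1, was not called, with 254 and 193 against 174, 82 and 180. EDS1 (AT3G48090) and PAD4 (AT3G52430), which act as partners in immunity, moved apart, EDS1 with 6607 and 10760 against 4444, 4484 and 4554 (limma adjusted p = 0.0163) and PAD4 with 1768 and 2881 against 7794, 8412 and 7834 (limma adjusted p = 0.00433). PR1 and PAD4 did not pass without 3 am sample 1 (limma adjusted p of 0.0949 and 0.0791), nor EDS1 without sample 2 (0.225). Abscisic acid and drought genes had 6 of 14 higher and none lower (median log2 change 0.61), among them CYP707A4 (AT3G19270), which breaks the hormone down, with 2087 and 2282 against 717, 682 and 717. That count fell to 3 with the noon pair as 1 library, to none without either 3 am library (CYP707A4 at limma adjusted p of 0.079 and 0.0801), and to 1 without noon sample 2.

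In the shikimate pathway, which makes aromatic amino acids, 7 of 13 genes rose and none fell, with a median log2 change of 0.76. EMB1144 (AT1G48850), the chorismate synthase, had 4485 and 4762 normalised counts at 3 am and 2769, 2749 and 2685 at noon (log2 change 0.76 ± 0.16; limma adjusted p = 0.00368). Further down, PAL2 (AT3G53260), which opens the phenylpropanoid pathway, overlapped, with 1116 and 1590 against 1247, 1379 and 1226. Of 26 phenylpropanoid and flavonoid genes 5 rose and 1 fell, against 9.89% and 10.4% of all genes tested, with a median log2 change of 0.27. The rises included COMT1 (AT5G54160), a methyltransferase of lignin, with 32805 and 45769 against 14117, 15017 and 13711 (log2 change 1.44 ± 0.32; limma adjusted p = 0.00623). With the noon pair as 1 library 3 shikimate genes and 1 phenylpropanoid gene rose and none fell. The counts without 3 am sample 1 were 3 and 1, without 3 am sample 2 they were 1 and none with 1 phenylpropanoid gene lower, and COMT1 then had a limma adjusted p of 0.0726. Secondary wall genes of xylem, with a median log2 change of 0.11, had 1 of 17 in each direction, or 1 lower with the noon pair as 1 library. The shares of all genes tested were 9.89% higher and 10.4% lower. LAC4 (AT2G38080) was lower, a call lost without 3 am sample 1, and MYB63 (AT1G79180) was higher, a call lost without 3 am sample 2. The list's sum of 23018 and 43936 at 3 am lay on either side of the 31000 to 33177 at noon.

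Of 13 genes of water and proton transport 4 rose, 3 aquaporins and 1 proton pump subunit, and 1 fell, or none with the noon pair as 1 library (median log2 change 0.64). Of all genes tested 9.89% rose and 10.4% fell. The aquaporin PIP1;2 (AT2G45960) was not called, with 46365 and 51134 normalised counts against 30010, 32925 and 29400 (limma adjusted p = 0.368). TIP1;1 (AT2G36830), an aquaporin of the vacuole membrane, had 24457 and 34754 normalised counts against 5583, 4687 and 5243 (log2 change 2.50 ± 0.35; limma adjusted p = 0.000301). PIP2;5 (AT3G54820), an aquaporin of the plasma membrane, had 54004 and 65810 against 11757, 11034 and 11343 (log2 change 2.39 ± 0.44; limma adjusted p = 0.00188). TIP2;1 (AT3G16240) followed with 3093 and 6470 against 784, 573 and 743. These 3 aquaporins kept their call without any single library. Redox and iron genes, with a median log2 change of 0.42, had 1 of 10 higher and 3 lower, or 1 and 1 with the noon pair as 1 library or without any single library. APX1 (AT1G07890), a cytosolic ascorbate peroxidase, had 45332 and 47898 against 9264, 10008 and 9564 (log2 change 2.28 ± 0.45; limma adjusted p = 0.0028). GRP7 (AT2G21660), a clock-controlled RNA-binding protein that is counted in this list, had 14824 and 16751 against 45581, 48414 and 46289 (log2 change -1.57 ± 0.26; limma adjusted p = 0.000965). It was the fall that stayed called with the noon pair as 1 library. The other falls, the catalase CAT3 (AT1G20620) and the ferritin FER1 (AT5G01600), did not pass there (limma adjusted p = 0.0762 and 0.0821).

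No phloem marker (0 of 5) and no cell cycle gene (0 of 22) passed the limma test after adjustment, 1 and 2 had an unadjusted p under 0.05, and 1 of each passed when the 9 am and 3 pm groups were left out of the fit. Their median log2 changes were -0.09 and 0.40. The phloem sum was 16887 and 36777 normalised counts at 3 am and 28140 to 28893 at noon, so that noon lay between the 3 am libraries. The cell cycle sum was 5438 and 8239 against 4613 to 5479. Of the guard cell markers (median log2 change -0.36) 1 of 6 rose and 1 fell, GC1 (AT1G22690) with 478 and 165 against 21, 25 and 19, and none did either without 3 am sample 1. With the noon pair as 1 library 1 rose and none fell. Among cuticle and epidermis genes (median log2 change 0.29) 1 of 15 rose, against 9.89% of all genes tested. It was KCS1 (AT1G01120), a wax elongase, with a log2 change of 3.06 ± 0.43 (limma adjusted p = 0.000301). The list summed to 46360 and 64930 against 29691 to 34483. No listed marker gene of these lists was at 0 in all 5 libraries. Of the genes listed for nectary development, with a median log2 change of -0.17, none of 8 rose and 3 fell. These were ARF6 (AT1G30330), ARF8 (AT5G37020) and INO (AT1G23420), which is described only as a YABBY family transcription factor. Their calls were lost with the noon pair as 1 library or without any single library. Of 189 genes whose description names a ribosomal protein 11 rose and 4 fell, against 9.89% and 10.4% of all genes tested. These include some factors and domain proteins outside the ribosome, and their median log2 change was 0.34. Both 3 am libraries lay above all noon libraries in 95 and below in 30, against 30.1% and 38.9% of all genes tested. Without the 9 am and 3 pm groups in the fit 57 rose and 12 fell, as did 2119 and 2783 of all 12264 genes. With the noon pair as 1 library 3 rose and 2 fell, and none did either without 3 am sample 1. The part of cell makeup in the results above was not tested.

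The largest falls outside these lists were in genes of varied kinds. The largest of them, AT4G01870, described as a tolB-like protein, had 2 and 27 normalised counts at 3 am and 682, 707 and 572 at noon (log2 change -6.15 ± 1.45; limma adjusted p = 0.00814), and did not pass without 3 am sample 1. AT1G11170, a protein of the DUF707 family, had 2285 and 2893 normalised counts at 3 am and 68258, 69958 and 71207 at noon (log2 change -4.76 ± 1.29; limma adjusted p = 0.016). AT1G14030, described as a Rubisco methyltransferase family protein, had 175 and 280 against 4234, 3865 and 4269 (log2 change -4.21 ± 0.63; limma adjusted p = 0.000459). AT1G04280, a P-loop nucleoside triphosphate hydrolase, had 247 and 382 against 3854, 4157 and 3855 (log2 change -3.68 ± 0.60; limma adjusted p = 0.000828). In all of these the noon libraries were above both 3 am libraries, and the calls of AT1G14030 and AT1G04280 also held without any single library, whereas AT1G11170 did not pass without either 3 am library. The largest fitted rises were in AT5G52400, a cytochrome P450, with 1685 and 1138 at 3 am and 1, 0 and 0 at noon (limma adjusted p = 0.0744 without 3 am sample 1), and in AT5G56030, a chaperone of the HSP90 class, with 1626 and 845 against 2, 0 and 0, and the fitted sizes rest on the added 1. Among the 15 largest rises, AT5G12030, a small heat shock protein, had 67991 and 31281 against 230, 279 and 276, AT5G15250, described as an FTSH protease, had 3239 and 1427 against 16, 10 and 14, and AT3G12320, a hypothetical protein, had 4359 and 2804 against 44, 24 and 22.

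The other untreated libraries were placed on the 2493 called genes by whether each value was nearer to the 3 am or to the noon mean. In the 8 am control libraries 89.5%, 89.4% and 91.0% of genes were nearer to 3 am. The libraries of 9 am did not agree among themselves, at 31.5%, 53.4% and 94.1%, and those of 3 pm ran from 1.52% to 39.6%, with the single 2 pm library at 48.3%. Thus 9 am sample 3 lay with the 3 am libraries and 3 pm sample 2 with the noon libraries. In LHY, 9 am sample 3 had 83100 normalised counts beside 20730 and 2525 in the other 9 am libraries, and in LHCB2.2 the 2 pm library had 51881, above both 3 am libraries. Without the 9 am and 3 pm groups in the fit, 4902 genes were called, 2119 higher and 2783 lower.

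**Figure D5:**
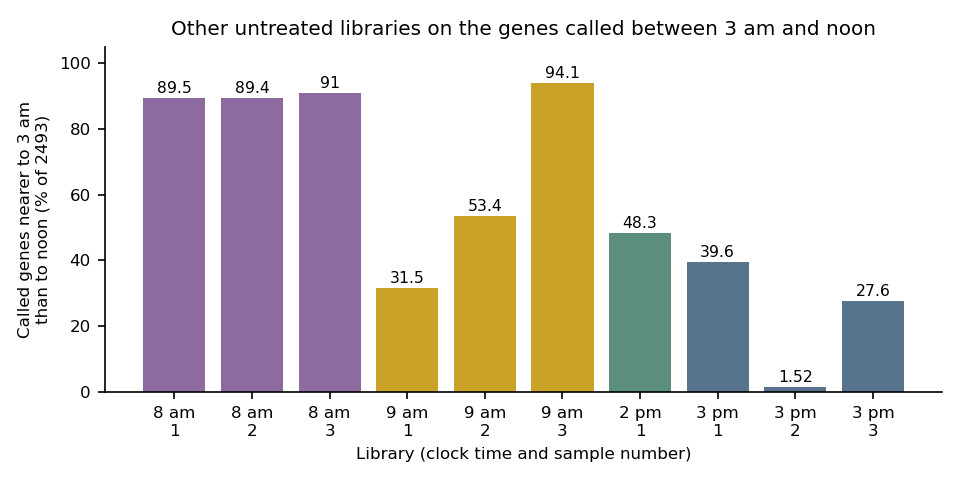
Share of the 2493 genes called between 3 am and noon (percent, vertical) whose value in each other untreated library is nearer to the 3 am mean than to the noon mean; each bar is 1 library. The 8 am libraries stand at 89.4 to 91.0%, and 9 am sample 3 (94.1%) and 3 pm sample 2 (1.52%) stand apart from their own groups.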

How the data were processed

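RNA was measured in nectary libraries made with the TruSeq RNA v2 kit and sequenced as paired 50 bp reads, per the labels' protocols. The authors deposited 1 table of normalised counts rounded to whole numbers, used here as a score per gene. How they were scaled, aligned, assembled and annotated is not given in the sources used here, so depth and counting error are unknown and overlapping or near-identical genes may share reads. Symbols are the usual Arabidopsis names of the table's loci.

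The 12264 of 12650 genes whose mean over 24 libraries reached 10 were taken to log2(value + 1) and tested with limma 3.58.1 (R 4.3.3), with a mean-variance trend, 1 coefficient per group (10 groups, 14 residual degrees of freedom), two-sided, with Benjamini-Hochberg adjustment over all genes tested and a threshold of 0.05. ± gives the standard error from the fit. A fold on this scale understates the change of low genes. With 2 against 3 libraries an exact permutation test cannot go below 0.1.

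Named genes were up to 15 rises and 15 falls with the largest change among called genes with no overlap between the groups and a higher mean of at least 200, up to 4 called members of each list per direction, and a fixed set. Genes outside that rule are named from the lists to show what did not pass. The members, the 28 lists and the fixed set were chosen with earlier results of these data known. The replicates are pools of different plants.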

Additional observations from a re-analysis of the deposited data

How the results depend on the processing

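The 2493 calls (1213 higher, 1280 lower at 3 am) were recomputed under 20 alternatives. Fitting the 3 am and noon libraries alone gave 6058 (2662 higher, 3396 lower), array quality weights 5361 (2383 and 2978), and leaving out the 9 am and 3 pm groups, chosen after seeing the data, 4902 (2119 and 2783). The untreated groups alone gave 1330 (517 lower), noon samples 1 and 3 as 1 library 1550 (694 lower), and these with ants-removed samples 2 and 3 likewise averaged 1231 (726 and 505). Requiring a change of at least 2-fold left 130 (126 and 4). Quantile normalisation gave 2026 lower. Leaving out 1 library gave 676 to 1607 calls, 503 to 864 higher and 173 to 746 lower; a lone 3 am library was assumed to vary like the other groups. The cause was not tested. The pseudocount, the filter, median-of-ratios scaling and no trend gave 2406 to 2556 calls, and median-of-ratios scaling turned the balance to 1453 higher and 1085 lower (57.2% higher, against 48.7%). Of 148 named genes 138 were called, 34 of them under every alternative, and none reversed. Deviations from the group mean correlated between -0.049 and 0.049 across 3 am and noon libraries, and at -0.0337 and 0.0117 for libraries of the same number. With 2 libraries at 3 am their deviations are mirror images, so whether the numbers pair the libraries cannot be decided. A replicate block gave 2817 calls over all libraries and 3323 in the 3 am and noon libraries alone. Depth is unknown, so the limit for low genes cannot be stated.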

Other observations

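Gene families were also counted by words in the table's descriptions, chosen after values were seen, so their counts are descriptions without a test of the family. The families were not recounted with noon samples 1 and 3 as 1 library. There the calls over all genes went from 1213 higher and 1280 lower to 856 and 694. Among B-box and CONSTANS-like proteins, zinc finger regulators of light and flowering responses, 8 of 17 were higher at 3 am and 4 lower, against 9.89% and 10.4% of all genes tested. CONSTANS-like 5 (AT5G57660) had 9791 and 9410 normalised counts at 3 am and 598, 618 and 617 at noon, and CONSTANS-like 9 (AT3G07650) had 455 and 657 against 4109, 4930 and 4240. Of the HSP70 and HSP90 chaperones 11 of 16 were higher and none lower, among them heat shock cognate protein 70-1 (AT5G02500) with 300357 and 226552 against 23452, 25642 and 23479. Of pentatricopeptide repeat proteins, which process organelle RNA, 2 of 131 were higher and 32 lower.

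Nitrate transporters split, with 2 of 7 higher and 2 lower, against 9.89% and 10.4% of all genes tested. Nitrate transporter 1.7 (AT1G69870) had 621 and 745 normalised counts at 3 am and 7012, 6082 and 7328 at noon, and nitrate transporter 1.5 (AT1G32450) had 2663 and 1568 against 346, 256 and 337. Of amino acid transporters 7 of 32 were higher and 3 lower, with a median log2 change of -0.04. In that family amino acid permease 7 (AT5G23810) had 3445 and 2103 against 168, 179 and 232. Of desaturases 4 of 11 were higher and 2 lower, with a median log2 change of 0.69. Fatty acid desaturase 7 (AT3G11170) had 1474 and 6052 against 421, 483 and 442, so that its level at 3 am rested on sample 2. The pectinesterase family gene AT3G14300 had 881212 and 602338 at 3 am and 1409178, 1934231 and 1411077 at noon (limma adjusted p = 0.271).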
